A study of Homo sapiens with 6 samples.

Results

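The mitochondrial ribosomal proteins were taken as the protein-coding genes whose symbol, looked up from the Ensembl identifier, is MRPL or MRPS followed by a digit, with a mean of at least 20 normalized counts over the 6 libraries. Such a symbol was carried by 78 of the 60668 genes measured, 49 of them MRPL and 29 MRPS, and 76 passed the mean: 48 genes named for the large subunit and 28 named for the small subunit. They lay on 21 chromosomes. MRPS24, with a mean of 6.16 normalized counts, and MRPL53, with no read in any library, were left out by the mean. The members just inside it were MRPL38 at 53.2 and MRPS28 at 59.3.

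The samples were MiaPaCa-2 cells, an established human pancreatic ductal adenocarcinoma line, kept for 48 h in medium with 2.5 mM glucose (low glucose, 3 libraries) or with 25 mM glucose (control, 3 libraries). All came from this single line, and the sample titles name no engineered genetic change and no drug. The values describe 1 cell line. RNA was measured by strand-specific RNA-seq as normalized counts, which are the reads on a gene after division by the size factor of that library. Reads on genes numbered 9741183, 10126218 and 10190154 in control and 10841656, 10595408 and 13733477 in low glucose, and since most columns lack a replicate number, a library is named here by its total. The keratin genes KRT8 and KRT18 were read at 13148 to 46963 normalized counts, while PTPRC of leukocytes, CPA1 and PRSS1 of acinar cells and INS of beta cells had no read in any library. LUM, a fibroblast gene, had 1 read in all, but COL1A2, also a fibroblast gene, was at 1916 to 2872 normalized counts and fell in low glucose (log2 fold change -0.52, adjusted p = 8.24e-05, limma). The keratin genes KRT8 and KRT18 fell as well (log2 fold change -1.01 and -0.74, adjusted p = 3.26e-06 and 4.29e-05, limma), while VIM, a mesenchymal gene, rose from 57844 to 65874 normalized counts in control to 79311 to 82511 in low glucose (log2 fold change 0.42, adjusted p = 0.00819, limma). The part of these changes in the results was not tested. In bulk RNA, fewer cells making a transcript and less of the transcript per cell cannot be told apart.

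The mitochondrial ribosome translates the few messages of the mitochondrial genome, which encode core subunits of the respiratory chain and of ATP synthase. Its ribosomal RNAs are made inside the organelle, while all its proteins are encoded in the nucleus, made on cytosolic ribosomes and imported. Some of these proteins have a counterpart in bacterial ribosomes and others are found only in mitochondria. The small subunit reads the message at the decoding centre, and the large subunit joins amino acids and is bound to the inner membrane, where new proteins are inserted. The proteins were first numbered from separated subunits, and later structures placed MRPS30 and MRPS18A in the large subunit, while MRPS36, also called KGD4, belongs to the alpha-ketoglutarate dehydrogenase complex.

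The promoters of these genes, which the symbols did not select for, were searched for motifs of common transcription factors. RefSeq promoters (hg38, 250 bases before to 50 bases after the start) matched 67 of the 76 members. The letters AAGATGGC, a core of the YY1 motif, searched on both strands, stood in 20 of these 67 (29.9%), against 3.52% of 27305 genes with a promoter and 6.94% of the 9194 expressed protein-coding genes. They were found in 13 of 41 large-subunit and 7 of 26 small-subunit genes. In 15 members (22.4%) the letters read in the direction of the gene and began between base 7 and base 36 of the transcript, counted from 1 at the start, against 3.97% of the expressed protein-coding genes. Windows of 30 bases around this match are shown for MRPL50 and MRPS30, which were lower in low glucose, and for MRPS18A, MRPS18B and MRPS10, which were not called. The capitals mark the match, and each window reads 5′ to 3′ in the direction of the gene.
MRPL50 (chr9:101398577-101398606, minus strand): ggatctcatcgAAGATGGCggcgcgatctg
MRPS30 (chr5:44808949-44808978, plus strand): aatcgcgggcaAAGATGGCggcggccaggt
MRPS18A (chr6:43687764-43687793, minus strand): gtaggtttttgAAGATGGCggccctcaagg
MRPS18B (chr6:30617852-30617881, plus strand): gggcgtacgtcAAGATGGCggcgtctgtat
MRPS10 (chr6:42217834-42217863, minus strand): tcgggaccggcAAGATGGCggcgcggacag

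The letters CCGGAAGT, a core of ETS factor sites, stood on either strand in 11 of the 67 promoters (16.4%), against 10.8% of the expressed protein-coding genes, and 9 of the 11 belong to the large subunit. They are shown for MRPL3 and for MRPS34, where the match is on the other strand. Both genes were lower in low glucose. Among the members with a promoter entry the letters stood in 4 of the 21 that were lower and in 7 of the other 46.
MRPL3 (chr3:131502985-131503014, minus strand): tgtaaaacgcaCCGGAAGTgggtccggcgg
MRPS34 (chr16:1773136-1773165, minus strand): ctcttccggtgACTTCCGGccggaccgctg

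The full NRF1 site was found in 1 of the 67 promoters, the E-box CACGTG in 9, the CRE core TGACGT in 6 and the SP1 core GGGCGG in 40 (59.7%), the last against 79.2% of the expressed protein-coding genes. The NRF1 core GCATGCG, which lies within the full site, was found in 7 (10.45%), against 8.07% of the expressed protein-coding genes. None of these 7 was among the 21 members that were lower in low glucose and have a promoter entry. The YY1 core stood in 4 of those 21 and in 16 of the other 46. A match of letters is a description of the window, not a bound site.

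In low glucose 24 of the 76 members were lower, 1 was higher and 51 did not pass the test (limma on log2(normalized count + 1), Benjamini-Hochberg adjusted p under 0.05). Over all 21101 genes tested 16.2% were lower and 14.7% higher, and over the 11237 protein-coding genes with a mean of at least 20, the same class as the members, 26.5% were lower and 18.1% higher. The members' share of lower calls was therefore near that of expressed protein-coding genes, while their share of higher calls was smaller than that of these genes. The log2 fold changes of the members ran from -0.47 to 0.43 with a median of -0.17, against a median of 0.05 over all genes tested and of -0.05 over the expressed protein-coding genes, and 51 of the 76 were below 0. The middle of the members' distribution, from the lower to the upper quartile, ran from -0.31 to 0.03, narrower than the -0.32 to 0.26 of the expressed protein-coding genes.

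The counts depended on single libraries and on the scaling. The shares beside them are over all genes that each run tested. Shares among the expressed protein-coding genes are not given for these runs. With all 6 libraries that class had the larger share of lower calls (26.5% against 16.2%, limma). Without the control library of 10126218 reads 40 members were lower and 1 was higher, where 17.7% of all genes tested were lower. Without the control library of 10190154 reads 21 members were lower and 7 were higher, MRPS25 among them. In that run 17.4% of all genes tested were lower, and 3534 of 21182 were higher. Without the low-glucose library of 10841656 reads 10 were lower, where 11.3% of all genes tested were lower. Leaving out the low-glucose library of 10595408 reads gave 14 lower, and leaving out that of 13733477 reads gave 15. Of all genes tested 11.8% and 12.4% were lower in these runs. When levels were scaled to the library totals, 12 were lower and 3 higher, and after quantile normalization 14 were lower and 5 higher. With these scalings 12.5% and 14.8% of all genes tested were lower. With edgeR's quasi-likelihood test on the reads 23 were lower and 2 higher, against 21.9% and 20.9% of the genes it tested, and with DESeq2 23 were lower and 1 higher, against 17.7% and 13.8%.

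**Figure D1:**
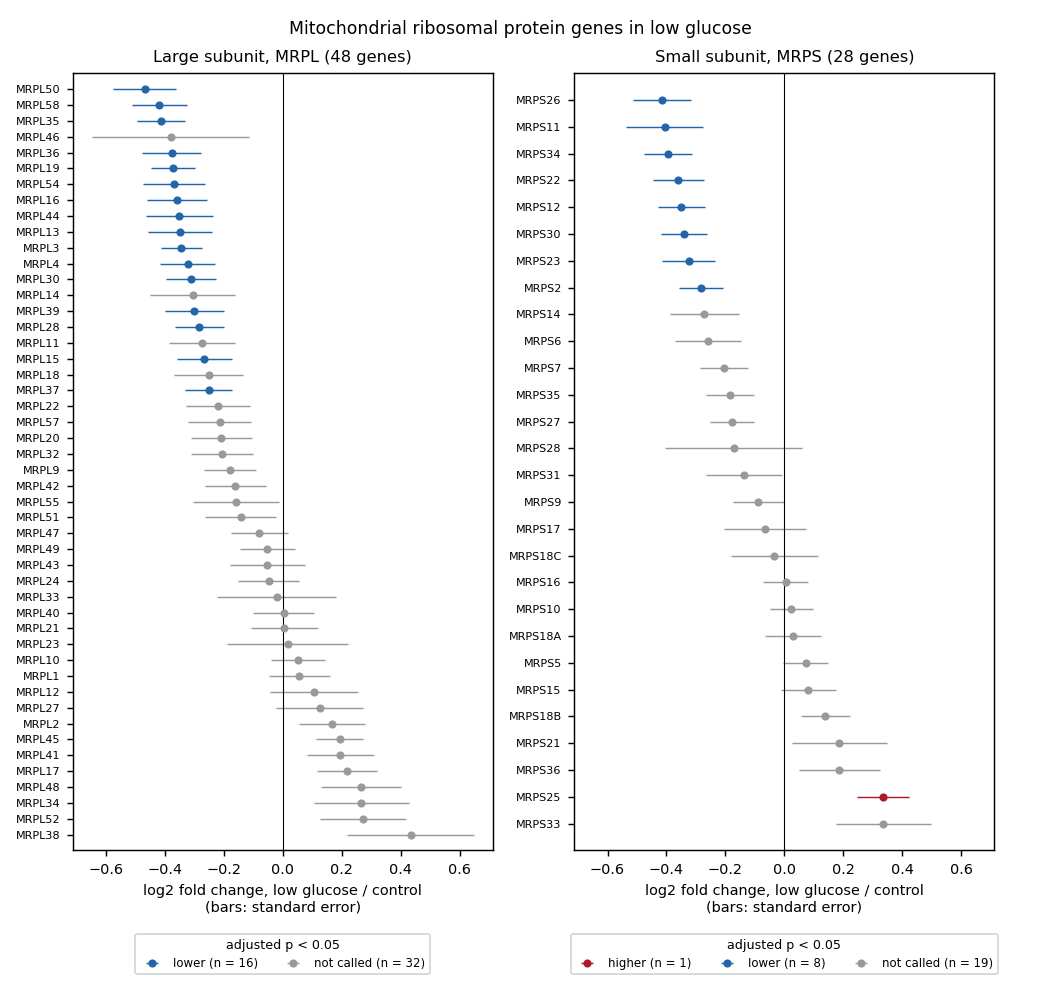
Log2 fold change (low glucose over control, x axis) of each mitochondrial ribosomal protein gene, with large-subunit genes on the left and small-subunit genes on the right; points are the estimates of limma over 3 against 3 libraries and bars their standard errors. Of the large-subunit genes 16 were lower and none higher, and of the small-subunit genes 8 were lower and 1 was higher.

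Among the large-subunit genes the largest fall was that of MRPL50, a protein found only in mitochondrial ribosomes. It was read at 436, 390 and 477 normalized counts in the control libraries and at 350, 296 and 294 in low glucose. The groups did not overlap, and the log2 fold change was -0.47 (SE 0.107, adjusted p = 0.00402, limma). MRPL58, also called ICT1, is a peptidyl-tRNA hydrolase that became part of the large subunit and takes part in the rescue of stalled ribosomes. It was at 489, 506 and 561 normalized counts in control and at 414, 369 and 380 in low glucose, every low-glucose library below every control library, with a log2 fold change of -0.42 (SE 0.0931, adjusted p = 0.00329, limma).

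MRPL35 and MRPL19, counterparts of bacterial large-subunit proteins, had the most even control values of the genes with the largest falls. MRPL35 stood at 713, 729 and 696 normalized counts in control and at 554, 501 and 552 in low glucose, a fall of 0.41 on the log2 scale (-0.41, SE 0.0828, adjusted p = 0.0016, limma). MRPL19 stood at 1096, 1052 and 1065 in control and at 797, 841 and 845 in low glucose, with a log2 fold change of -0.37 (SE 0.0753, adjusted p = 0.00174, limma). For each of them the lowest control library was over 100 normalized counts above the highest low-glucose library. Of the MRPL19 transcript 22.3% lies in a same-strand long non-coding gene that had no read here.

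MRPL36, a small counterpart of a bacterial protein, varied more between control libraries. It was at 508, 474 and 603 normalized counts in control and at 400, 397 and 417 in low glucose, with a log2 fold change of -0.38 (SE 0.1, adjusted p = 0.0104, limma). MRPL54, found only in mitochondria, was at 257, 259 and 273 in control and at 192, 217 and 200 in low glucose, with a log2 fold change of -0.37 (SE 0.105, adjusted p = 0.0152, limma). Neither gene's groups overlapped. MRPL54 lost its call under scaling by library size, where the log2 fold change was -0.29.

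The other large-subunit genes that were lower were MRPL16, MRPL44, MRPL13, MRPL3, MRPL4, MRPL30, MRPL39, MRPL28, MRPL15 and MRPL37, with log2 fold changes from -0.36 to -0.25. MRPL3, which lies close to the peptidyl transferase centre, was the most abundant member by count, at 2521, 2639 and 2620 normalized counts in control and at 2000, 2068 and 2059 in low glucose. Its groups did not overlap (log2 fold change -0.34, SE 0.0702, adjusted p = 0.00181, limma). MRPL3 shares 14.2% of its transcript with a long non-coding gene on the other strand, which also fell (log2 fold change -0.31, adjusted p = 0.0246, limma). LIMASI, a non-coding gene opposite 21.4% of the MRPL4 transcript, fell too (log2 fold change -0.37, adjusted p = 0.0164, limma).

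Large-subunit genes fixed for what their protein does, other than MRPL58, did not pass the test. MRPL12 belongs to the stalk that binds translation factors and is also known to bind the mitochondrial RNA polymerase. It was at 155, 220 and 241 normalized counts in control and at 233, 214 and 205 in low glucose, and the groups overlapped (log2 fold change 0.11, adjusted p = 0.636, limma). MRPL32, whose maturation by the m-AAA protease is a known step of ribosome assembly, was at 666, 567 and 739 in control and at 571, 515 and 619 in low glucose (log2 fold change -0.21, adjusted p = 0.161, limma). MRPL41 was at 979, 862 and 1240 in control and at 1239, 1181 and 1074 in low glucose (log2 fold change 0.20, adjusted p = 0.212, limma). For each of these genes the control libraries spread over a wider range than the difference between the group means.

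Among the small-subunit genes the largest fall without overlap was that of MRPS26, found only in mitochondria. It was read at 747, 709 and 861 normalized counts in control and at 641, 549 and 546 in low glucose, with a log2 fold change of -0.42 (SE 0.0976, adjusted p = 0.0048, limma). MRPS34, also specific to mitochondria, was at 782, 781 and 860 in control and at 609, 612 and 621 in low glucose, with a log2 fold change of -0.39 (SE 0.0804, adjusted p = 0.0018, limma). The low-glucose libraries of MRPS34 had an SD of 6.12 normalized counts around 614. Of its transcript 32.6% lies opposite EME2, whose log2 fold change was 0.06 (adjusted p = 0.681, limma).

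MRPS12, the counterpart of a bacterial protein of the decoding centre, and MRPS22, a mitochondria-specific protein with known disease variants, also fell. MRPS12 was at 874, 839 and 926 normalized counts in control and at 697, 675 and 699 in low glucose (log2 fold change -0.35, SE 0.0789, adjusted p = 0.00371, limma). MRPS22 was at 642, 639 and 600 in control and at 488, 520 and 459 in low glucose (log2 fold change -0.36, SE 0.086, adjusted p = 0.00537, limma). In both genes every low-glucose library was below every control library. COPB2, which covers 26.6% of the MRPS22 transcript on the other strand, fell as well (log2 fold change -0.23, adjusted p = 0.0381, limma).

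MRPS11 and MRPL46 start 63 bases apart on chromosome 15 and run in opposite directions, and no other pair of members started within 1000 bases of each other. MRPS11 was at 358, 292 and 428 normalized counts in control and at 292, 267 and 245 in low glucose, and it was called although the highest low-glucose library reached the lowest control library (log2 fold change -0.41, adjusted p = 0.0279, limma). MRPL46 was at 71.7, 56.8 and 128 in control and at 46.2, 72.1 and 70.5 in low glucose (log2 fold change -0.38, adjusted p = 0.308, limma). The MRPL46 groups overlapped, and 73.4% of its transcript is shared with a same-strand readthrough gene at a mean of 0.253 normalized counts.

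MRPS23 and MRPS2 completed the lower small-subunit genes, with log2 fold changes of -0.32 and -0.28 (adjusted p = 0.0138 and 0.0108, limma). MRPS30, carried in the large subunit in spite of its name, was lower too. It stood at 1161, 1205 and 1078 normalized counts in control and at 891, 883 and 943 in low glucose, without overlap (log2 fold change -0.34, SE 0.0784, adjusted p = 0.0041, limma).

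MRPS25 was the only member that passed the test as higher. This mitochondria-specific small-subunit protein was at 756, 673 and 809 normalized counts in control and at 978, 950 and 890 in low glucose, with no overlap of the groups (log2 fold change 0.34, SE 0.0876, adjusted p = 0.00922, limma). NR2C2, which lies opposite 18.6% of the MRPS25 transcript, was higher as well (log2 fold change 0.26, adjusted p = 0.0239, limma). The call was lost when the low-glucose library of 10841656 or that of 10595408 reads was left out, with log2 fold changes of 0.31 and 0.33, and in the fit with no trend of the variance. MRPS18B, MRPL45 and MRPL48 had low-glucose values all above control values but were not called, with log2 fold changes of 0.14, 0.19 and 0.27 (adjusted p = 0.225, 0.0775 and 0.157, limma). In all, 28 members had low-glucose values all below the control values and 4 all above, against 21.8% and 22.1% of the genes tested. Among the expressed protein-coding genes the shares were 33.3% and 24%, so that the 28 of 76 members with all values below control stood near the share of their own class, while the 4 with all values above stood below it.

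**Figure D2:**
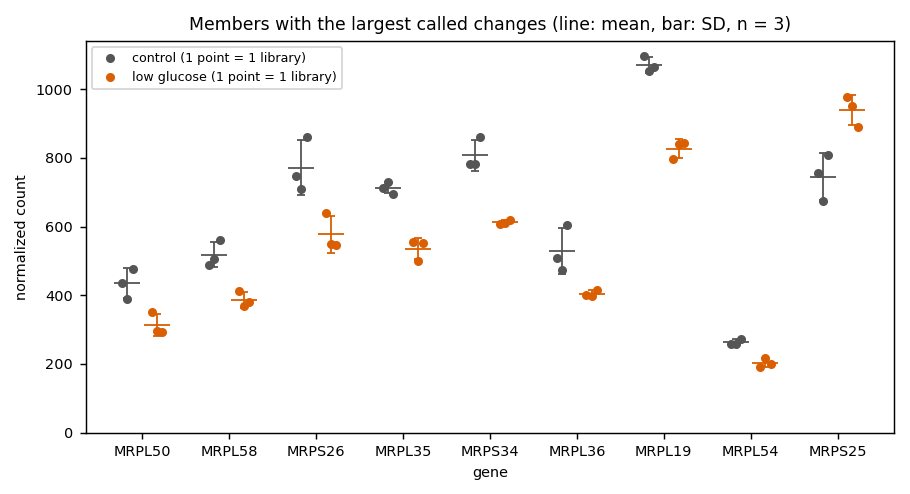
Normalized counts (y axis, from 0) of the 8 members with the largest falls among those called without overlap between groups, and of MRPS25, the only member called higher; each point is a library, lines are means and bars SDs of 3 libraries. In none of these genes do the control and the low-glucose points overlap, and for MRPL19 they lie at 1052 to 1096 and at 797 to 845.

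The paralogues MRPS18A, MRPS18B and MRPS18C descend from relatives of the bacterial S18 protein and sit at different places of the ribosome. MRPS18C, at the bacterial site, was at 358, 241 and 376 normalized counts in control and at 346, 285 and 306 in low glucose (log2 fold change -0.03, adjusted p = 0.891, limma). MRPS18B was at 519, 501 and 537 in control and at 570, 592 and 554 in low glucose. MRPS18A, of the large subunit, was at 383, 415 and 400 in control and at 445, 395 and 384 in low glucose (log2 fold change 0.03, adjusted p = 0.848, limma). None of the paralogues passed the test, and the sign of MRPS18C and of MRPS18A changed with the scaling. The transcripts of MRPS18C and MRPS18A lie opposite exons of ABRAXAS1 and RSPH9 over 83.6% and 60.6% of their length.

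MRPS6, a counterpart of a bacterial small-subunit protein, was at 460, 382 and 509 normalized counts in control and at 394, 341 and 387 in low glucose (log2 fold change -0.26, adjusted p = 0.0946, limma). Of the MRPS6 transcript 33.1% is shared on the same strand. MRPS36, the dehydrogenase subunit, was at 251, 182 and 271 in control and at 279, 258 and 254 in low glucose (log2 fold change 0.19, adjusted p = 0.333, limma). The groups of both genes overlapped.

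The change of the large subunit differed from that of the small subunit by less than the spread between control libraries, and this difference was given no test. The median log2 fold change was -0.19 over the 48 large-subunit genes, 33 of them below 0, and -0.15 over the 28 small-subunit genes, 18 of them below 0. Large-subunit genes were lower in 16 of 48 cases (33.3%) and small-subunit genes in 8 of 28 (28.6%). No large-subunit gene was called higher by limma, where 2 had an unadjusted p under 0.05, while edgeR called 1, MRPL45, and DESeq2 none. The summed normalized counts of the large subunit were 1.44, 1.40 and 1.53 times those of the small subunit in the control libraries and 1.41, 1.41 and 1.39 times in low glucose. The means of this ratio, 1.46 ± 0.0659 and 1.40 ± 0.0151 (SD, n = 3 each), lay within the range of the control libraries, and their quotient was 0.965. With sums per transcript length the quotient was 1.006.

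Placing the members by structure changed little. The large subunit then held 50 members, of which 17 were lower with a median log2 fold change of -0.19, and the small subunit 25 members, of which 7 were lower and 1 higher with a median of -0.17. The difference was wider with the 5 subunit proteins whose symbol is not MRPL or MRPS. Then 18 of 51 large-subunit genes (35.3%) and 7 of 29 small-subunit genes (24.1%) were lower, with medians of -0.21 and -0.14. This difference was not tested. Counterparts of bacterial proteins (45 members) had 13 lower with a median of -0.18, and the 30 mitochondria-specific members had 11 lower and 1 higher with a median of -0.17. The 3 lower genes among the 15 bacterial counterparts in the small subunit were MRPS11, MRPS12 and MRPS2.

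Members moved together between libraries of the same group. Relative to each gene's control mean, the median log2 level of the large-subunit genes was 0.00, -0.17 and 0.16 in the control libraries of 9741183, 10126218 and 10190154 reads and -0.15, -0.16 and -0.22 in the low-glucose libraries of 10841656, 10595408 and 13733477 reads. For the small subunit the values were 0.02, -0.10 and 0.09 in control and -0.15, -0.16 and -0.17 in low glucose. The control library of 10126218 reads was the lowest of its group for 54 of the 76 members and that of 10190154 reads the highest for 53. The low-glucose medians of the large subunit thus included values above that of the lowest control library, while those of the small subunit were below all control values.

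These control libraries also differed by transcript length. Across the 76 members, Spearman's rho between transcript length and the relative level was 0.355 in the control library of 10126218 reads and -0.368 in that of 10190154 reads, a description over genes that share a library. Between the log2 fold change and length rho was -0.0583. When a trend with length was removed from each library, an alternative chosen after seeing the data, 40 members were lower and 1 was higher. In this run 20.45% of all genes tested were lower. The part of transcript length or RNA quality in the calls was not tested beyond this. The members took 0.409% to 0.489% of the normalized counts in control libraries and 0.419% to 0.435% in low glucose.

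**Figure D3:**
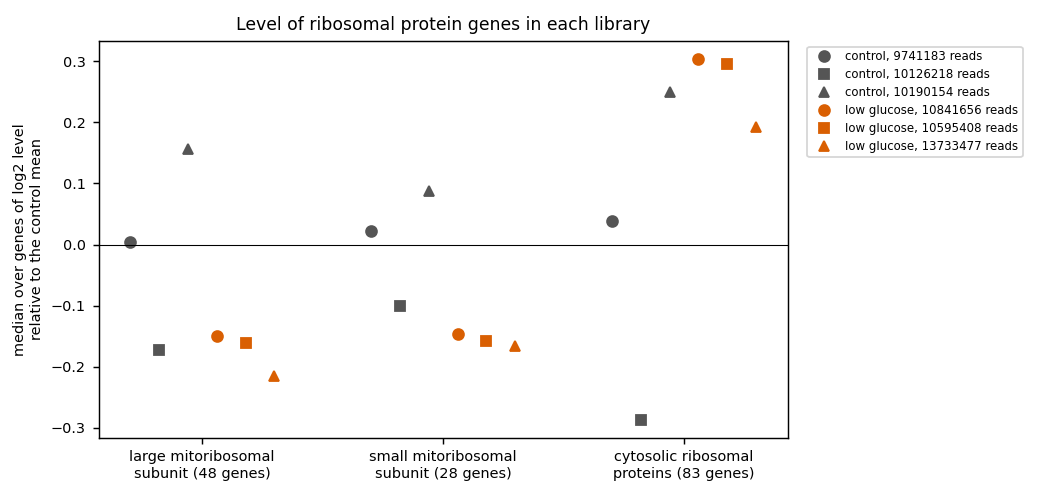
Median over genes of the log2 level relative to the mean of the control libraries (y axis) for each library, for large-subunit, small-subunit and cytosolic ribosomal protein genes; each point is a library and marker shape tells libraries of a group apart. The low-glucose points of the large subunit (-0.15 to -0.22) lie beside the lowest control point (-0.17), and the cytosolic control points spread from -0.29 to 0.25.

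Cytosolic ribosomal proteins, encoded by 83 tested genes that the symbol rule for RPL and RPS found, which also takes the binding protein RPS19BP1 and tissue-restricted paralogues, went the other way in this measure. Of these 26 were higher (31.3%) and 2 lower (2.41%), with a median log2 fold change of 0.26. Among the expressed protein-coding genes 18.1% were higher and 26.5% lower, with a median of -0.05. The median relative level of the cytosolic genes was 0.04, -0.29 and 0.25 in the control libraries and 0.30, 0.30 and 0.19 in low glucose. The highest control library was thus above the lowest low-glucose library. The number called went from 7 to 68 when single libraries were left out. It was 7 without the low-glucose library of 10841656 reads, where 1931 of 21060 genes tested were higher and 2388 lower. It was 68 without the control library of 10190154 reads, where 3534 of 21182 genes tested were higher and 3690 lower. With TPM it was 7, where 2302 of 20994 genes tested were higher and 2986 lower. The difference between the mitochondrial and the cytosolic genes was not tested.

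Levels per transcript length were compared as the mean normalized count over the 6 libraries per kilobase of the canonical transcript (Gencode v44). MRPL41 was the highest at 1883 per kilobase, followed by MRPL51 at 1530 and MRPL3 at 1357. MRPL41 and MRPL51 are mitochondria-specific, short transcripts of 582 and 898 bases, and neither was called (MRPL51 log2 fold change -0.14, adjusted p = 0.408, limma). The lowest were MRPL42 at 25.0, whose canonical transcript has 15557 bases, and MRPL38 at 39.2. The ribosome holds its proteins as an assembly of fixed makeup, and the levels per canonical transcript length spread over a wide range. This range depends on the lengths used: MRPL42, the lowest, had a mean of 388 normalized counts. Which transcript of a gene the cells made was not tested.

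How the deposited counts treat reads in exons shared by genes of the same strand is not given in the sources used here. At least 20% of the transcript was shared with same-strand genes in the table for 7 members. MRPL38 shared 94.3% with a readthrough gene, MRPS28 56.2%, MRPS17 26.4% with a single partner and MRPL12 69.5%. These partners had a mean of 6.08 normalized counts for MRPL38 and of 0 for MRPS28, MRPS17 and MRPL12. MRPL46, MRPL19 and MRPS6 (33.1%) were the others. The 7 members included 4 of the 5 lowest per length, namely MRPL46, MRPS28, MRPS17 and MRPL38. The genes outside the mean of 20 were of the same kind, since 99.2% of the MRPL53 transcript is shared with CCDC142 and 90.9% of the MRPS24 transcript with URGCP-MRPS24. CCDC142 had a mean of 175 normalized counts and URGCP-MRPS24 of 0. The true level of these genes cannot be read from the table. Of the 48 members with no shared exon 15 were lower, with a median log2 fold change of -0.17.

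**Figure D4:**
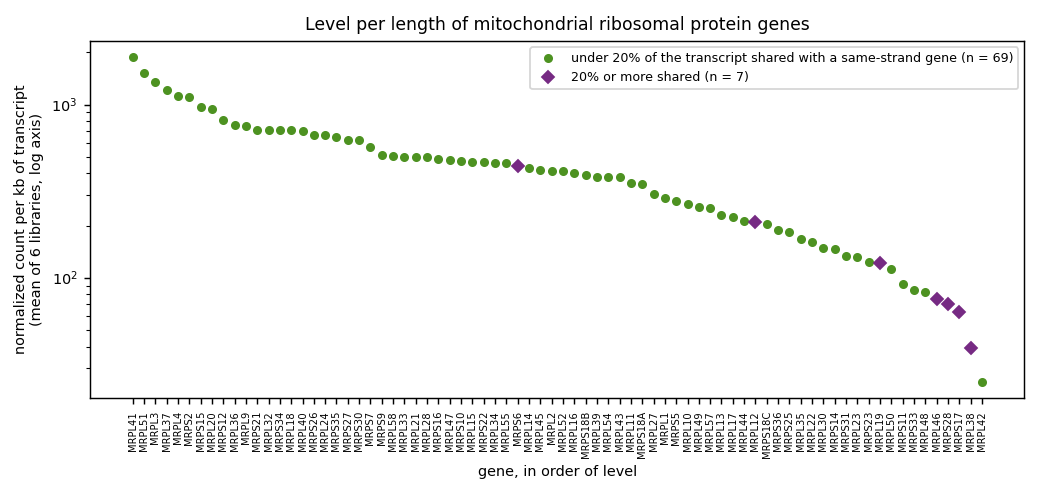
Mean normalized count over 6 libraries per kilobase of canonical transcript (log axis) of the 76 members in order of level; diamonds mark the 7 members that share at least 20% of their transcript with a same-strand gene. The levels run from 1883 (MRPL41) to 25.0 (MRPL42), and 4 of the 5 lowest members are diamonds.

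Of the subunit proteins whose symbol is not MRPL or MRPS, GADD45GIP1 fell the most. This large-subunit protein, also called CRIF1, lies near the exit of the peptide tunnel. It was at 2111, 2046 and 2294 normalized counts in control and at 1563, 1601 and 1484 in low glucose, without overlap (log2 fold change -0.47, SE 0.076, adjusted p = 0.000293, limma). AURKAIP1, of the small subunit, was at 1708, 1711 and 2245 in control and at 1629, 1588 and 1438 in low glucose. Its groups did not overlap, but it did not pass the test (log2 fold change -0.27, adjusted p = 0.0563, limma).

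The other small-subunit proteins of this kind did not pass the test. The GTP-binding protein DAP3 had a log2 fold change of -0.05 (adjusted p = 0.704, limma), the RNA-binding protein PTCD3 of -0.06 (adjusted p = 0.61, limma) and CHCHD1 of 0.05 (adjusted p = 0.854, limma). The signs of DAP3 and PTCD3 turned positive under scaling by library size and under quantile normalization. The ribosomal RNAs were not called either: MT-RNR1, of the small subunit, had a log2 fold change of -0.20 (adjusted p = 0.364, limma) and MT-RNR2, of the large subunit, of 0.17 (adjusted p = 0.502, limma).

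Of the 31 genes that assemble the mitochondrial ribosome or modify its RNA 8 were lower (25.8%) and 6 higher (19.4%), with a median log2 fold change of -0.01. These shares were near those of the expressed protein-coding genes (26.5% and 18.1%). The largest fall was that of MRM3, a ribose methyltransferase of the large ribosomal RNA. It was at 547, 635 and 616 normalized counts in control and at 391, 319 and 354 in low glucose (log2 fold change -0.76, SE 0.101, adjusted p = 5.91e-05, limma). The lowest control library was more than 150 normalized counts above the highest low-glucose library, a wider gap in proportion than for any ribosomal protein described above.

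RCC1L, a guanine nucleotide exchange factor relative that acts in large-subunit assembly, was at 1488, 1728 and 1550 normalized counts in control and at 1076, 1039 and 1171 in low glucose (log2 fold change -0.53, adjusted p = 0.000216, limma). The RNA helicase DHX30 was at 1381, 1558 and 1368 in control and at 987, 1030 and 1005 in low glucose (log2 fold change -0.51, adjusted p = 0.000214, limma). The pseudouridine synthase TRUB2 fell too (log2 fold change -0.44, adjusted p = 0.00126, limma). None of these genes had overlapping groups. MALSU1, DDX28, FASTKD2 and ERAL1, which bind the subunits or their RNA during assembly, were the other lower genes, with log2 fold changes from -0.37 to -0.22. IGF2BP3, opposite 52.4% of the MALSU1 transcript, also fell (log2 fold change -0.28, adjusted p = 0.00926, limma).

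Among the higher assembly genes, MTG1, a GTPase of large-subunit assembly, was at 223, 173 and 178 normalized counts in control and at 290, 261 and 283 in low glucose (log2 fold change 0.54, adjusted p = 0.00322, limma). SPRN, which lies opposite 54.2% of the MTG1 transcript, was also higher (log2 fold change 0.44, adjusted p = 0.0125, limma). The inner membrane protein MPV17L2 was at 210, 215 and 201 in control and at 343, 283 and 280 in low glucose (log2 fold change 0.53, adjusted p = 0.00235, limma). The endoribonuclease YBEY and the GTPase NOA1 rose with log2 fold changes of 0.53 and 0.49 (adjusted p = 0.0186 and 0.0195, limma), and PTCD1 and RPUSD3 were higher as well. Of the PTCD1 transcript 43.0% is shared on the same strand with ATP5MF-PTCD1, which had a mean of 121 normalized counts. All 6 higher genes had low-glucose values above all control values.

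Of the 16 translation factors of the organelle 3 were lower (18.8%) and 2 higher (12.5%), with a median log2 fold change of 0.06. Neither share was above that of the expressed protein-coding genes (26.5% and 18.1%). TUFM, the elongation factor that brings transfer RNAs to the ribosome and the most abundant gene of the list, was at 5158, 4934 and 5597 normalized counts in control and at 4478, 4313 and 4505 in low glucose (log2 fold change -0.24, adjusted p = 0.0278, limma). The translocase GFM1 was at 948, 1042 and 977 in control and at 780, 710 and 793 in low glucose (log2 fold change -0.38, adjusted p = 0.00264, limma). TACO1, which activates translation of a cytochrome c oxidase subunit, was at 493, 528 and 553 in control and at 393, 385 and 393 in low glucose (log2 fold change -0.42, adjusted p = 0.00196, limma). In these genes control and low-glucose values did not overlap.

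MTRFR, a factor that rescues stalled ribosomes, and OXA1L, the insertase that receives new proteins at the inner membrane, were higher. MTRFR was at 286, 285 and 317 normalized counts in control and at 362, 377 and 361 in low glucose (log2 fold change 0.31, adjusted p = 0.0224, limma). OXA1L was at 1150, 1083 and 1308 in control and at 1377, 1439 and 1378 in low glucose (log2 fold change 0.25, adjusted p = 0.0356, limma). The groups of both did not overlap. TSFM, the exchange factor of TUFM, had 1 to 14 reads a library and shares 94.7% of its transcript with a same-strand gene. That gene had no read, and the level of TSFM cannot be read from the table.

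**Figure D5:**
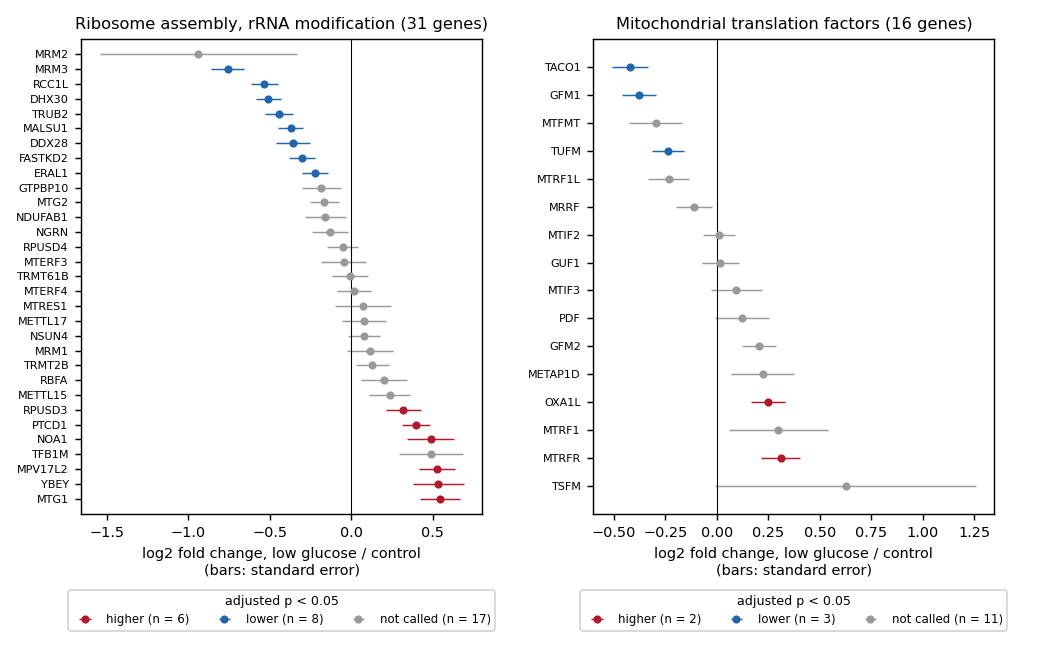
Log2 fold change (low glucose over control, x axis) of the genes for assembly and RNA modification of the mitochondrial ribosome (left) and of the mitochondrial translation factors (right), with standard errors as bars; colours mark an adjusted p under 0.05. Assembly genes are called on both sides of 0 (8 lower, 6 higher), and MRM2 and TSFM, with few reads, have the widest bars.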

How the data were processed

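RNA-seq was performed on MiaPaCa-2 cells after 48 h in low (2.5 mM) or control (25 mM) glucose, with 3 libraries per group. The design text calls the replicates independent. It gives the control as 25 mM, while the treatment label repeats 2.5 mM for all 6 samples. Labels tie a column to low glucose replicates 1 and 2, and the other 4 columns were assigned from the runs of column names. The authors prepared strand-specific libraries, sequenced 150-bp paired ends, trimmed with Trim Galore, mapped to hg38 with STAR 2.7.0e and used DESeq2. RSEM is named in the study's software list, but its use for these counts, the strand setting and the annotation are not given in the sources used here. The deposited signal is on the scale of counts, since the authors divided the counts of genes by size factors. Whole reads were recovered for 100% of values in each library (tolerance 0.01 read). Since the values are not raw counts, the branch of the design for normalized values was used.

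Identifiers were matched to Gencode v44 (99.4%). Genes with a mean of 1 or more (21101) were fitted as log2(value + 1) with limma 3.58.1 (R 4.3.3, variance trend, two-sided, Benjamini-Hochberg adjustment, threshold 0.05), so fold changes of low genes are understated. Alternatives used edgeR 4.0.16 and DESeq2 1.42.0 on recovered reads, other scalings, filters and pseudocounts, and each library left out in turn. The fits were tested on simulated data. Exact permutation tests were not used, as 3 against 3 libraries allow no p under 0.1.

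Members and gene lists were chosen with earlier results of these data known. Genes were named by rule: the 8 largest rises and falls without overlap between groups among called members, 10 members fixed for their protein, 5 subunit proteins with other symbols, the 4 largest called rises and falls of the assembly and factor lists, the ribosomal RNAs, the extremes of level, and genes that share exons with these. Other members are named after their values were seen. Shared exons were counted only with genes in the table. Of these genes, 1 is not reported here.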

Additional observations from a re-analysis of the deposited data

How the results depend on the processing

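No paired analysis was possible because replicate numbers are lacking for 4 of the columns. TMM factors, no filter, a mean of at least 5 and a pseudocount of 0.1 kept the 43 single genes on their side of the threshold with their direction. MRPL19, MRPS34, MRPL35, MRPS12, MRPL58 and MRPS22 were lower in every scaling, filter, tool and left-out library run. The cause of the changes below was not tested. The 3 libraries per group and the spread between control libraries limit the precision.

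Members were lower and higher in these numbers: 12 and 3 by library size, 14 and 5 by quantile normalization, 40 and 1 with the length trend removed, 8 and 0 without the variance trend, 23 and 2 by edgeR, and 15 and 0 without shared exons. For the large subunit they were 6 and 2 by library size, 9 and 3 by quantile normalization, 26 and 0 with the length trend removed, 5 and 0 without the variance trend, and 1 was higher by edgeR. For the small subunit they were 5 and 2 by quantile normalization, 14 and 1 with the length trend removed, 3 and 0 without the variance trend, and 4 and 0 without shared exons. Without the variance trend 8 assembly genes, 2 factors and 3 cytosolic genes were called, and cytosolic calls were 48 by library size, 55 by quantile normalization and 7 with TPM. Without the variance trend 1991 of all genes tested were lower (9.44%) and 2099 higher. By library size all genes tested had 3932 higher and 2646 lower (12.5%), against 3111 and 3417. By quantile normalization and with the length trend removed, 14.8% and 20.45% of all genes tested were lower. Quantile normalization called 2900 of all genes tested higher and 3125 lower, and TPM 2302 and 2986. The small-subunit median was -0.0739 by library size, -0.0614 by quantile normalization and -0.25 with the length trend removed, and the quotient of the subunit ratio was 1.006 per length.

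Some single genes changed sign. By library size MRPS18C was 0.0471, PTCD3 0.0196, DAP3 0.0316 and MRPS24 0.0401; by quantile normalization PTCD3 was 0.12, DAP3 0.16, MT-RNR2 -0.10 and MRPL51 0.0386. With the length trend removed MRPL12 was -0.0525, MRPS18A -0.13 and CHCHD1 -0.11, with TPM MRPS18A was -0.00537, and by DESeq2 MRPS24 was 0.18.

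Leaving out each library in turn gave 10 to 40 members lower and 0 to 7 higher, 5 to 28 and 0 to 4 for the large subunit, 5 to 12 and 0 to 3 for the small subunit, 8 to 15 assembly genes, 2 to 7 factors and 7 to 68 cytosolic genes. The share of all genes tested that was lower ran from 11.3% to 17.7%. In numbers, 2388 to 3741 of the 21042 to 21182 genes tested were lower and 1931 to 3534 higher. The large-subunit median ran from -0.30 to -0.09, the small-subunit median from -0.23 to -0.0807 and the quotient of the subunit ratio from 0.947 to 0.990. Single genes that changed sign ran from -0.14 to 0.18 (CHCHD1), -0.13 to 0.00747 (DAP3), -0.0834 to 0.23 (MRPL12), -0.29 to 0.00327 (MRPL51), -0.0350 to 0.0715 (MRPS18A), -0.23 to 0.0848 (MRPS18C), -0.66 to 0.30 (MRPS24), -0.42 to 0.0360 (MRPS28), -0.39 to 0.0203 (MT-RNR1) and -0.0402 to 0.41 (MT-RNR2).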
